A study of Mus musculus with 2 samples.

Results

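The genes described here drive the cell cycle and copy the DNA. They are 39 genes chosen by symbol, and each was found on the array among 24315 genes that a main probeset names with a single symbol. They fall into 10 genes of G1 control, 14 genes of DNA replication and nucleotide supply, and 15 genes of mitosis. Transcript levels came from C57BL/6 mice, either wild type or carrying an HDAC11 knockout. HDAC11 is a histone deacetylase. Macrophages were drawn into the peritoneal cavity with thioglycollate, an irritant, kept overnight in culture without treatment, and RNA was taken from the adherent cells, although the sample descriptions call the cells freshly isolated. Each genotype had 1 array. The values below therefore carry no p-value and no error between animals, and this number of arrays sets the limit of precision. The labels do not say how many mice gave each RNA, their age, or which part of Hdac11 was deleted.

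A cell that leaves quiescence first makes D-type cyclins, which activate CDK4 and CDK6 to phosphorylate the retinoblastoma protein and free E2F transcription factors. E2F proteins then switch on cyclin E and the genes that license, unwind and copy DNA, and a later wave of transcription, run by the MuvB complex with B-MYB and FOXM1, makes the kinases, cyclins and motors of mitosis. Monocyte-derived macrophages of an inflamed cavity divide little, whereas resident peritoneal macrophages can renew themselves by division.

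Values are the authors' RMA signals on a linear scale, and each difference is the log2 signal of the array labelled knockout minus that of the wild-type array. A gene counted as above the floor when its brighter signal reached 159.1, the median over all named genes, which 12158 genes did. Hdac11 itself, from the brighter of its 2 probesets, read 134.5 in wild type against 147.2 on the array labelled knockout (0.13), with both signals below the floor. Its difference stayed between 0.06 and 0.16 under the alternatives that change values, which include averaging the probesets. Hdac11 was therefore not lower on the array labelled knockout. Whether its probes lie in the deleted part is not given, so all directions rest on the label. Macrophage markers were bright on both arrays: Cd68 gave 13221 and 13545, and the CSF1 receptor gene Csf1r 6125 and 6221. Of the 9 measured, 5 were higher and 4 lower on the array labelled knockout. They ranged from Itgam at 6906 and 6142 (-0.17) to Mertk at 4534 and 5449 (0.27). For the 5331 intron controls the median was -0.36, against -0.01 for genes above the floor, and their part in any result below was not tested. Less transcript per cell and fewer dividing cells cannot be told apart in RNA of a whole cell population.

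Of the 39 genes, 37 reached the floor, and Cdc6 and Birc5 did not. None of the 37 differed by 1.5-fold or more, a size that 1.55% of all genes above the floor reached, 0.543% higher and 1.01% lower. At 1.2-fold or more, 3 of the 37 were lower on the knockout-labelled array, where 6.93% of all genes were, and 1 was higher, where 7.11% were. Those lower were Ccnd1, Ccnd2 and Mcm2, and the one higher was Tk1. These counts are near the background and are no result about the 37 genes as a group. Over all 37 genes the median difference was -0.05, with an SD over genes of 0.17, against a median of -0.01 and an SD of 0.21 for all genes above the floor. In direction, 22 of the 37 were lower and 15 higher, where 53.2% of all genes were lower. When the arrays were quantile normalized, 15 were lower and 22 higher, with 40.3% of all genes lower. All 39 genes were read from probesets that the deposited annotation calls unique.

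**Figure D1:**
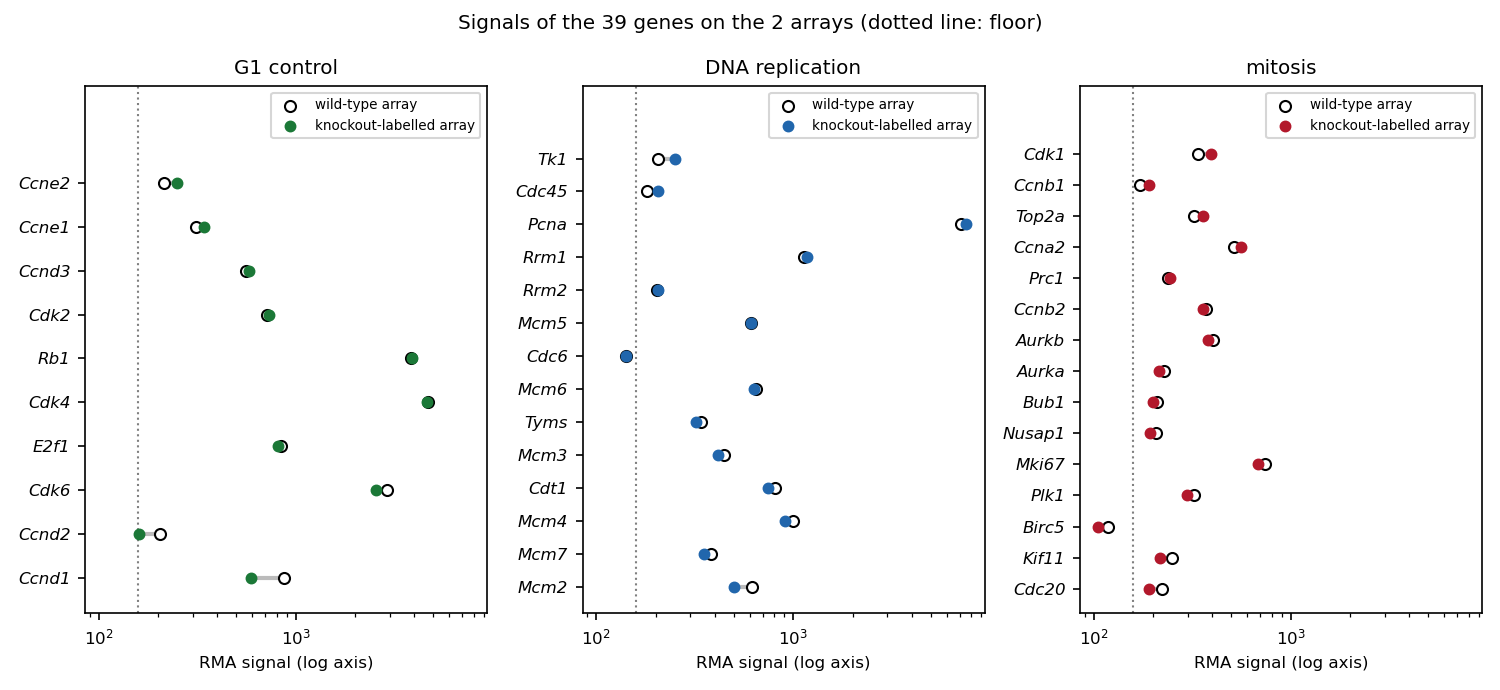
RMA signal (log axis) of each of the 39 genes on the wild-type array (open circles) and the knockout-labelled array (filled circles), in panels for G1 control, DNA replication and mitosis, ordered by difference, with the floor of 159.1 as a dotted line. Most pairs of circles nearly coincide, and the widest gap is that of Ccnd1, from 871.1 to 589.6.

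The 3 classes had medians close to that of all genes. Genes of G1 control had a median of 0.00, with 5 higher and 5 lower, and the widest range, from -0.56 to 0.21. For DNA replication the median was -0.02 over 13 genes above the floor, 5 higher and 8 lower, with a range from -0.32 to 0.28. Mitotic genes had a median of -0.07 over 14 genes, 5 higher and 9 lower, and a range from -0.21 to 0.22. No mitotic gene reached 1.2-fold. Quantile normalization put the medians at 0.01, 0.04 and 0.02 in the same order, beside 0.04 for all genes. Centring put G1 control at -0.02, so the sign of each class median depended on the scaling. No test of the classes against each other was possible with 1 array per genotype.

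**Figure D2:**
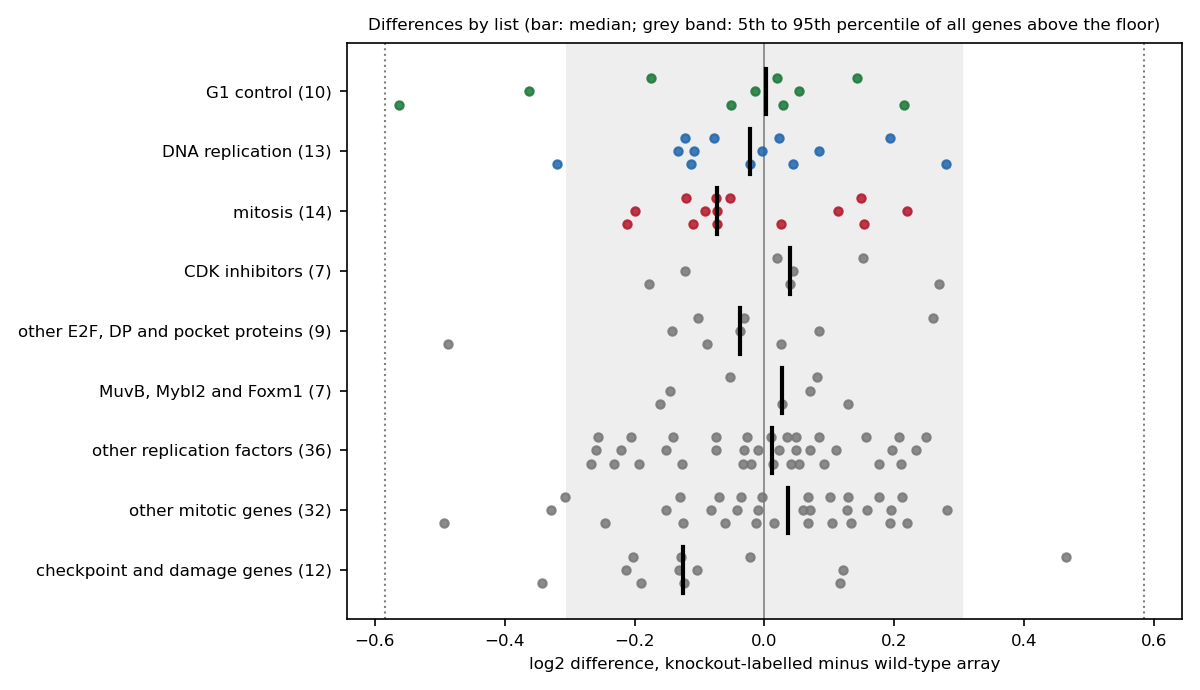
Log2 difference (knockout-labelled minus wild-type array) of each gene above the floor, by list, with the number of genes in parentheses, the median as a black bar, dotted lines at 1.5-fold and a grey band from the 5th to the 95th percentile of all genes above the floor (-0.30 to 0.31). Ccnd1 at -0.56 is the point furthest from 0, and no point lies beyond 1.5-fold.

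G1 control held the largest differences. The D-type cyclins bind CDK4 and CDK6 and couple growth factor signals to the cycle. Ccnd1 (probeset 17498502, chromosome 7, 144929931 to 144939925) read 871.1 in wild type against 589.6 on the array labelled knockout (-0.56, 1.48-fold). That is just short of 1.5-fold, and 134 of the 12158 genes (1.1%) were lower by at least as much. Among the 500 genes nearest to Ccnd1 in mean signal the SD of the differences was 0.20. Centring the differences on the median of all named genes put Ccnd1 at -0.59, past 1.5-fold, and quantile normalization at -0.51. Ccnd2 (chromosome 6, 127125167 to 127151048) gave 205.3 and 159.7, a difference of -0.36, with the dimmer signal close to the floor. The third D-type cyclin, Ccnd3, did not share this direction, with 558.9 and 579.7 and a difference of 0.05. Coordinates are those of the deposited annotation, for which the labels name no genome build. All 39 probesets overlapped the gene of the same symbol in RefSeq's GRCm38.p6.

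The partners of the D-type cyclins differed less. Cdk4 gave 4671 and 4625 (-0.01), and Cdk6 2900 and 2568 (-0.18), which is more than the SD of 0.14 among genes of like signal. The retinoblastoma gene Rb1 was nearly equal at 3838 and 3889 (0.02), and a second, dim Rb1 probeset gave 102.7 and 107.2. E2f1, the E2F factor that Rb1 restrains, gave 844.6 and 815.1 (-0.05). Cyclin E drives entry into S phase with CDK2, and both of its genes were higher on the knockout-labelled array: Ccne1 gave 311.0 and 343.3 (0.14) and Ccne2 215.6 and 250.1 (0.21). Their kinase gene Cdk2 was at 717.2 and 731.4 (0.03). Of the 5 cyclins of the E, A and B types, 4 were higher and Ccnb2 was lower, and 2 of the 3 D-type cyclins were lower. These counts were the same under all scalings but quantile normalization, which also turned Ccnb2 to higher. As background, 46.4% of the array's genes at or over the floor had a positive difference, and 53.2% a negative one. Each of the 5 E, A and B cyclins differed by less than the SD of genes of like signal, from 0.21 for Ccna2 to 0.24 for Ccne2. Among the D-type cyclins, Ccnd1 and Ccnd2 differed by more than this SD (0.20 and 0.22) and Ccnd3 by less (0.21). The cyclin counts are a description, and an opposite move of the D-type and later cyclins was not tested.

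Markers of other cells that the adherent fraction could hold were read from 7 lists, over all measured genes with no floor, where 44.1% of the 24315 genes were lower on the array labelled knockout. In the direction of Ccnd1 and Ccnd2, 9 of 13 mesothelial and fibroblast markers were lower, and their summed signal was 4805 in wild type against 4107 on the array labelled knockout. Pdgfra, a receptor of fibroblasts, was furthest from 0 in that list at 708.9 and 493.9. Resident peritoneal macrophage markers were lower in 7 of 10 cases, with sums of 5726 and 4724, and the 7 above the floor had a median of -0.34. Gata6, the factor that defines these cells, gave 487.1 and 424.8 (-0.20), within the SD of 0.22 of genes of like signal. The adhesion receptor gene Selp, at 429.5 and 243.4 (-0.82), and the chemokine gene Cxcl13, at 1539 and 1019 (-0.60), were lower by over 1.5-fold. Cd5l, the brightest of the list, gave 2104 and 1983 (-0.09). The 3 higher markers were Alox15 (0.06) and, below the floor, Lyve1 at 104.9 and 140.5 (0.42) and Serpinb2 (0.04). B cell markers were lower in 4 of 6 (sums of 1209 and 1117). In the opposite direction, mast cell markers were higher in 5 of 6 (433.6 and 704.6), markers of neutrophils and their precursors in 8 of 10 (3556 and 3895) and T cell markers in 4 of 6 (502.8 and 533.3). Most of these lay below the floor, which 1 mast cell, 3 neutrophil and 0 T cell markers reached, against 8 mesothelial and fibroblast and 4 B cell markers. The mast cell marker above it, Cpa3, gave 168.7 and 366.0 (1.12, 2.17-fold). The neutrophil markers above it were S100a8 at 203.1 and 375.6 (0.89, 1.85-fold), Prtn3 at 189.7 and 256.7 (0.44), and Csf3r at 2606 and 2648 (0.02). The 3 measured eosinophil markers, all below the floor, gave sums of 211.5 and 203.6. No marker had a signal of 0. The part of these cells in the differences of Ccnd1 and Ccnd2 was not tested.

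DNA replication begins when CDC6 and CDT1 load the ring of MCM2 to MCM7, the core of the replicative helicase, onto DNA. All 6 MCM genes were lower on the knockout-labelled array, with a median of -0.12, where 53.2% of all genes above the floor were lower. Mcm2 (chromosome 6, 88883474 to 88898780) differed the most, at 621.0 and 497.8 (-0.32, 1.25-fold), and 548 of the 12158 genes were lower by at least as much. Mcm7 gave 384.1 and 350.5 (-0.13), Mcm4 993.1 and 912.0 (-0.12), and Mcm3 446.1 and 414.0 (-0.11). The other two were nearly equal on both arrays: Mcm6 gave 644.5 and 634.6 (-0.02), and Mcm5 612.2 and 610.9 (0.00). Of the 6, only Mcm2 differed by more than the SD of the 500 genes nearest in mean signal, which was 0.21 for Mcm2. Mcm5 and Mcm6 turned to slightly higher after loess correction and after quantile normalization. There 4 of 6 were lower, beside 50.9% and 40.3% of all genes above the floor. Mcm2 stayed between -0.35 and -0.25 under all settings tried. Cdt1, whose product is known to bind HDAC11 protein, gave 810.0 and 748.9 (-0.11). Cdc6 was below the floor at 142.2 and 141.3, and Cdc45, a helicase cofactor, was higher at 180.7 and 206.8 (0.19).

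The MCM genes are expressed in S phase from promoters that E2F factors bind, and mitotic genes from promoters with a cell cycle homology region, or CHR, which the MuvB complex binds. Upstream sequences in RefSeq (GRCm38.p6) were matched to 32 of the 39 genes, which did not include Ccnd1 or Ccnd2. The 250 bases before the start were searched on both strands for the CHR motif TTTGAA, the CCAAT box CCAAT and the E2F motifs TTTCCCGC and TTTGGCGC. TTTGAA was present in 7 of 13 mitotic genes, 2 of 13 replication genes and 0 of 6 genes of G1 control, against 18.3% of 27025 genes. CCAAT was present in 11 of 13, 9 of 13 and 2 of 6, against 37.5%. The strict E2F motifs were rare among all genes. TTTCCCGC was found in Cdk2, Cdc6 and Mcm7, 9.38% of the 32 genes, and in 1.03% of all genes. TTTGGCGC was found in Mcm5 and Mcm6, 6.25% of the 32, and in 0.485% of all genes. A match is a description and no evidence of a bound site. The upstream sequences of the MCM genes with the largest and the smallest difference are shown, and those of Cdk1 and Cdc20, the mitotic genes with the highest and the lowest difference. Each is written 5′ to 3′ on the strand of its gene and ends 1 base before the start, with the matches to the 4 motifs, or to their reverse complements, in capitals. Mcm2 lies at chr6:88898781-88899030 on the minus strand, Mcm5 at chr8:75109259-75109508 on the plus strand, Cdk1 at chr10:69352913-69353162 on the minus strand and Cdc20 at chr4:118437344-118437593 on the minus strand.
Mcm2: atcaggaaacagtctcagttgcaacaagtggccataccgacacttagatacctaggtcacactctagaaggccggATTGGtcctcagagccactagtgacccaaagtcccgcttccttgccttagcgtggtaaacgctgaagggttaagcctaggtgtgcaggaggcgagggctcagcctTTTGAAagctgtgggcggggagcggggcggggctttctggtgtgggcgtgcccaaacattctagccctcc
Mcm5: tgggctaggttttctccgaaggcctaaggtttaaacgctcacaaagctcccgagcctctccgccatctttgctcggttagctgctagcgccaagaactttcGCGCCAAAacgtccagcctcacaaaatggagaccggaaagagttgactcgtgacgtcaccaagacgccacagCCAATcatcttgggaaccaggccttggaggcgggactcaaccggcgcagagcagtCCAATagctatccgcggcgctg
Cdk1: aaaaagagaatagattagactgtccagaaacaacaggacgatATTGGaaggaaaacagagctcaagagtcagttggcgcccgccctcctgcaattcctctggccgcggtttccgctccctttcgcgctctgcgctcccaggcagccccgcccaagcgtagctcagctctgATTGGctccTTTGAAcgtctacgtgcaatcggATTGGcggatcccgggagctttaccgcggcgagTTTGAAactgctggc
Cdc20: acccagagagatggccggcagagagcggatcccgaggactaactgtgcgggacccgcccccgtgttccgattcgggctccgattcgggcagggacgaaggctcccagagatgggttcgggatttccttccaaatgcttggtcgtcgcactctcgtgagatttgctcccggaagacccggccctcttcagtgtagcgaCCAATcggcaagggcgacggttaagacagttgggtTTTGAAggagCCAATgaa
Mcm2 holds a CCAAT box on the reverse strand, whose first base lies 175 bases before the start, and TTTGAA 70 bases before it, but neither E2F motif in this form. Mcm5 holds TTTGGCGC on the reverse strand at 149 bases and CCAAT boxes at 77 and 22 bases. Cdk1 holds TTTGAA at 71 and 15 bases with reverse CCAAT boxes at 208, 80 and 48 bases, and Cdc20 holds TTTGAA at 18 bases between CCAAT boxes at 53 and 8 bases. Cdk1 and Cdc20 both carry TTTGAA and CCAAT close to the start. They were picked as the highest and lowest mitotic genes, so their opposite signs follow from that choice. Any link of these motifs to the direction of a difference was not tested.

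Mcm7 also carries, inside its span and on its strand, 3 microRNA genes that are known to be made from its intron. They are shown because the array reads them separately from their host. Their mature strands are given with bases 2 to 8, the seed, in capitals, from RefSeq (GRCm38.p6).
mmu-miR-106b-5p: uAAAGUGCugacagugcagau
mmu-miR-93-5p: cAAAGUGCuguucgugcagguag
mmu-miR-25-3p: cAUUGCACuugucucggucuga
The first and second share the seed AAAGUGC, and the third has AUUGCAC. The precursor probeset of Mir25 read 185.1 in wild type against 244.1 on the array labelled knockout (0.40), the opposite direction to Mcm7. Those of Mir93, at 28.4 and 38.2, and of Mir106b, at 81.9 and 75.4, lay below the floor on both arrays.

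Among genes of nucleotide supply and the replication fork, Tk1 differed the most. It encodes thymidine kinase, which salvages thymidine in S phase, and read 206.6 in wild type against 250.7 on the array labelled knockout (0.28, 1.21-fold). In the same direction, 754 of the 12158 genes differed by at least as much. The ribonucleotide reductase genes, whose enzyme makes deoxynucleotides, were close to 0: Rrm1 gave 1136 and 1172 (0.04) and Rrm2 202.4 and 205.6 (0.02). A second Rrm2 probeset, annotated on the opposite strand and far below the floor, gave 12.9 and 17.5. Averaging both put Rrm2 at 0.23. Thymidylate synthase, Tyms, gave 339.1 and 321.6 (-0.08). Pcna, the sliding clamp of DNA polymerases, gave 7127 and 7553 (0.08), and among genes of its brightness the SD of the differences was 0.12. Except for Tk1, these genes differed by less than the SD of genes of like signal.

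**Figure D3:**
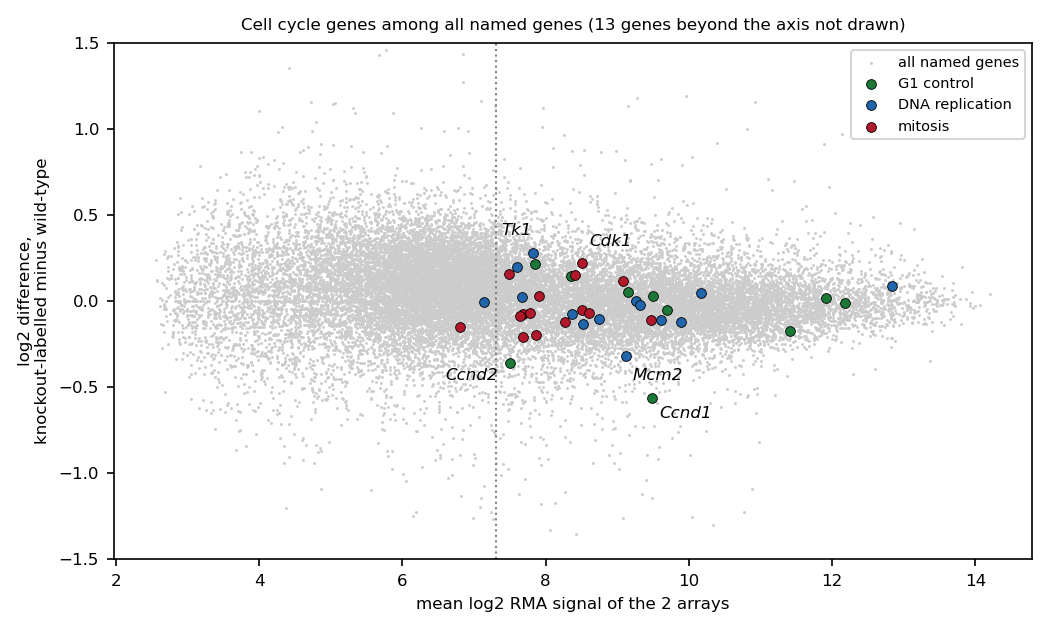
Log2 difference (knockout-labelled minus wild-type) against the mean log2 signal of the arrays for all named genes (grey) and for genes of G1 control (green), DNA replication (blue) and mitosis (red), with the floor as a dotted line and 13 genes outside the axis not drawn. The coloured points lie inside the grey cloud, with Ccnd1 (-0.56) at its lower edge.

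Mitotic genes split by direction without a large difference in either. Cyclin-dependent kinase 1, the kinase that starts mitosis, was highest. Cdk1 gave 337.5 and 392.9, a difference of 0.219 against an SD of 0.216 among genes of like signal. Its cyclins followed in part, with Ccna2 at 518.3 and 560.6 (0.11), Ccnb1 at 171.0 and 190.2 (0.15), and Ccnb2 lower at 371.3 and 358.0 (-0.05). Topoisomerase II alpha, which untangles chromosomes, gave 322.7 and 357.9 (Top2a, 0.15). A further pair of Top2a probesets on chromosomes 12 and 13, not unique by the deposited annotation, gave 184.9 and 153.9, and 281.9 and 257.5, so that the mean of the 3 probesets was -0.08, of opposite sign. The midzone bundler Prc1 was nearly equal at 238.4 and 242.6 (0.03).

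The other 9 mitotic genes were lower by small amounts. Cdc20, which activates the anaphase-promoting complex, gave 221.8 and 191.6 (-0.21), and the spindle motor gene Kif11 gave 249.6 and 217.3 (-0.20). The kinase genes differed less, with Plk1 at 322.9 and 296.9 (-0.12), Aurka at 226.8 and 215.6 (-0.07), Aurkb at 401.3 and 381.5 (-0.07), and the checkpoint kinase Bub1 at 210.5 and 199.9 (-0.07). After quantile normalization Aurka, Aurkb and Bub1 were slightly higher. Mki67, the gene of the proliferation marker Ki-67, gave 737.7 and 683.2 (-0.11). Nusap1, a spindle microtubule binder, gave 206.8 and 194.1 (-0.09), and Birc5, the survivin gene, lay below the floor at 117.6 and 105.6. Each of these genes differed by less than the SD of the 500 genes nearest in mean signal, which ranged from 0.19 for Aurkb to 0.25 for Bub1 among those above the floor.

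Further genes of the same pathways were read from 6 lists, assembled with earlier results of these arrays known. None of their 103 genes above the floor reached 1.5-fold, a size that 1.55% of all genes above the floor reached. For the directions given below, 53.2% of all genes above the floor were lower and 46.4% higher. CDK inhibitors, which hold the cycle in G1, were higher in 5 of 7 cases (median 0.04). Cdkn2a gave 204.4 and 246.3 (0.27), and Cdkn1a, the p21 gene, 4217 and 3727 (-0.18). The other E2F, DP and pocket protein genes were lower in 6 of 9 (median -0.04). E2f3, an activating E2F, was furthest at 654.0 and 466.7 (-0.49, 1.40-fold), and the repressor E2f8 gave 237.9 and 285.0 (0.26). MuvB subunits with Mybl2 and Foxm1 were higher in 4 of 7 (median 0.03), with Lin52 at -0.16 and Lin54 at -0.15. Among CDK inhibitors and in the MuvB list, only 2 genes each reached the 75th percentile of signal, and their medians were -0.07 and -0.11.

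Of 36 further replication factors above the floor, 19 were higher and 17 lower (median 0.01), with DNA ligase I at 262.5 and 218.1 (Lig1, -0.27) and the polymerase epsilon gene Pole at 254.1 and 212.2 (-0.26). Averaging the probesets of Pole gave 0.00. Of 32 further mitotic genes 17 were higher and 15 lower (median 0.04), and the furthest were the cytokinesis motor gene Kif23, at 392.9 and 279.1 (-0.49, 1.41-fold), and the kinetochore gene Ndc80, at 221.5 and 176.4 (-0.33). Only 32 of the 48 listed reached the floor, and over all 48 the median was -0.03. Checkpoint and DNA damage genes were lower in 9 of 12 (median -0.13), whereas the 6 that reached the 75th percentile of signal had a median of 0.05, of opposite sign. The furthest among the lower genes was Pkmyt1, the gene of a CDK1-inhibiting kinase, at 295.3 and 233.0 (-0.34). Gadd45a, a stress-induced growth arrest gene, was furthest among the 3 higher genes at 751.5 and 1037 (0.47, 1.38-fold), and 151 of the 12158 genes were higher by at least as much.

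**Figure D4:**
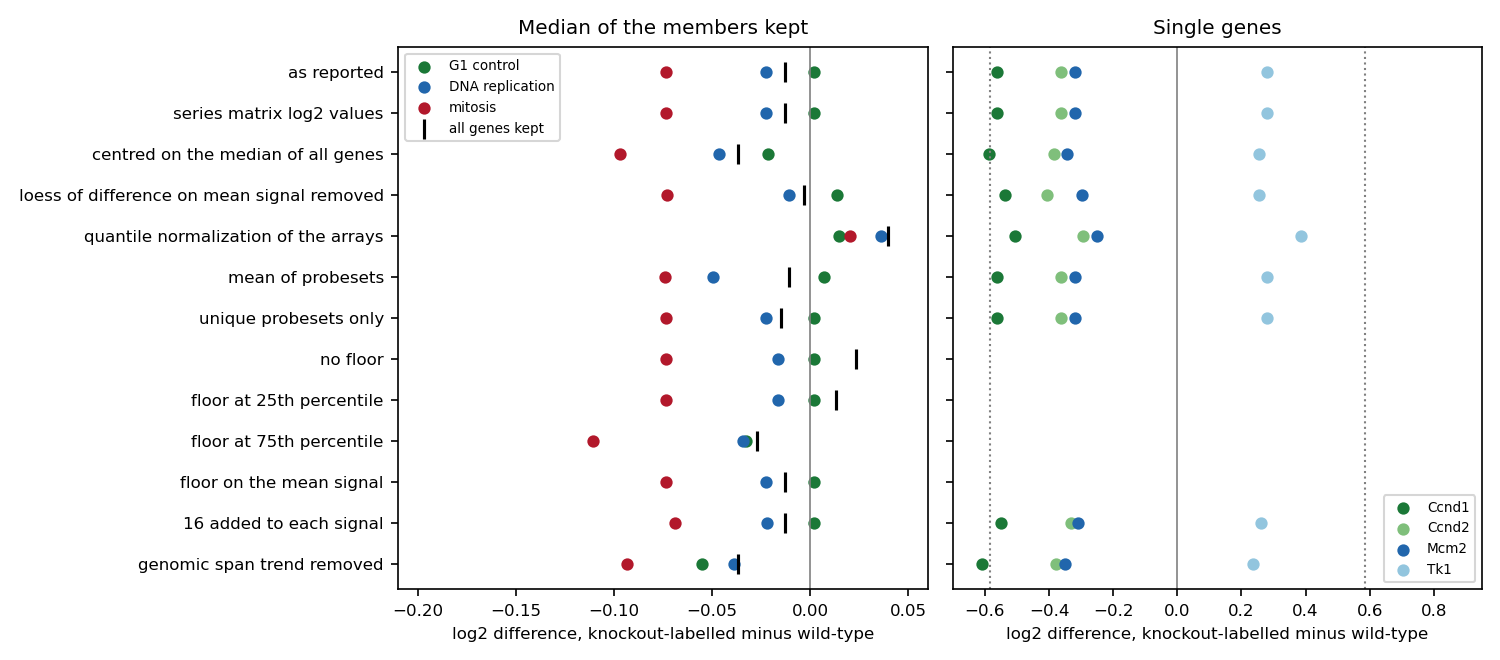
Log2 difference (knockout-labelled minus wild-type) under each processing setting, as the median of the genes kept in each class beside that of all genes kept (left) and for Ccnd1, Ccnd2, Mcm2 and Tk1 (right, dotted lines at 1.5-fold, settings that change only the floor left blank). The signs of the 4 single genes hold under the settings shown, and Ccnd1 crosses 1.5-fold in 2 of them.

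Among the 39 genes, 27 kept the sign of their difference under the alternatives that change values, and 12 did not. Ccnd1 lay between -0.61 and -0.51, Ccnd2 between -0.41 and -0.29, Tk1 between 0.24 and 0.38, and Cdk1 between 0.19 and 0.31. The 12 had differences between -0.08 and 0.15 as reported, and Top2a was the furthest from 0 among them.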

How the data were processed

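RNA of 1 wild-type and 1 HDAC11 knockout sample was hybridised to Affymetrix arrays. The deposited workbook holds RMA intensities of 41345 probesets, made by the authors with RMA in Affymetrix Expression Console 1.2.1, as the submitters' processing notes and, for RMA, the column headers state. The deposited series matrix holds log2 values of the same signals, equal to within 5e-05. The array's library files and genome build were not given in the sources used here.

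Among 33641 main probesets, those naming 1 symbol were kept, and the probeset with the highest mean stood for each gene (43 probesets for the 39 genes). The 39 genes and the lists were chosen with earlier results of these data known. Named genes are all 39, Hdac11 and, per pathway list, the genes at 1.5-fold or otherwise the 2 furthest from 0. Signals were used as deposited, with no further scaling. No test was possible with 1 array per genotype. Alternatives covered the source of values, centring, loess (span 0.3), quantile normalization, probeset summary, floors, an offset of 16 and, chosen after seeing the data, removal of the trend with genomic span. Steps were tested on simulated data. Python 3.11.15, numpy 2.4.6, pandas 2.3.3, statsmodels 0.14.6 and matplotlib 3.10.9 were used.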

Additional observations from a re-analysis of the deposited data

How the results depend on the processing

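No paired analysis was possible because there was 1 array per genotype. A median was taken as stable when it moved by less than 0.05 and a single gene when it moved by less than the SD of the 500 genes of like signal. By this, 105 medians stayed and 15 moved, 414 single values stayed and 2 moved (Top2a to -0.08 and Pole to 0.00, both by averaging probesets), and 39 counts stayed and 9 moved. Many of these outcomes were fixed in advance, so the counts are no measure of robustness. The series matrix holds the same signals, and all 39 genes were already read from unique probesets. Averaging acts only on genes with several probesets, and centring moved every gene by the same 0.02. Quantile normalization, which put the median of all named genes at 0.06 in place of 0.02, moved replication genes to 0.037, mitotic genes to 0.020, all members to 0.022, CDK inhibitors to 0.12, the MuvB list to 0.10, further mitotic genes to 0.13 and checkpoint genes to -0.056. A floor at the 75th percentile, which leaves fewer genes, gave -0.067, -0.107, 0.105 and 0.048 for CDK inhibitors, MuvB, further mitotic and checkpoint genes, and a floor at the 25th percentile or none gave -0.027 for further mitotic genes. Removing the trend with genomic span, chosen after seeing the data, gave -0.055 for G1 control and -0.037 for CDK inhibitors. That setting and centring each put 1 gene, Ccnd1, lower by 1.5-fold. At 1.2-fold, 4 genes were higher after quantile normalization and 0 after centring, loess, an offset of 16, removal of the span trend or a floor at the 75th percentile, which left 1 lower. The cause of these moves was not tested beyond the smaller number of genes at the higher floor.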

Other observations

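Genes of the histone clusters, which supply histones for newly copied DNA and are transcribed mainly in S phase, were mostly higher on the knockout-labelled array. The group was taken by symbol after its values were known, so its counts are a description. Of the 21 above the floor, all were higher on the knockout-labelled array, with a median of 0.32 and a range from 0.03 to 1.01, where 46.4% of all genes above the floor were higher. Of the 11 with unique probesets, all were higher, with a median of 0.26. Over all 47 measured, 39 were higher and 8 lower (median 0.23), where 54.7% of all genes were higher. After loess correction, averaging of probesets or removal of the span trend 20 of the 21 were higher. On the same arrays the median of the replication genes above the floor was -0.02 and that of the further replication factors 0.01.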
